A study of Mus musculus with 12 samples.

Results

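The Dlk1-Dio3 region of mouse chromosome 12 is an imprinted domain whose proximal part holds a string of miRNA hairpins around and inside the antisense transcript of the gene Rtl1. The 34 mature miRNAs described here were every row of the count table named miR-127, miR-136, miR-337, miR-341, miR-370, miR-431, miR-432, miR-433, miR-434, miR-493, miR-540, miR-665, miR-673, miR-770, miR-1188, miR-3070, miR-3071 or miR-3544, with any letter and either arm, out of 1549 rows. They were chosen by name and position and not by a cut on their counts, though with earlier results of these data known. No row of the table used here carried the name miR-432 or miR-665-5p. All 34 passed the filter on low counts in both fits.

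Small RNA libraries came from sorted mouse cells of 5 groups, all of wild-type genotype per the labels. Androgenetic haploid embryonic stem cells (ESC), whose single chromosome set comes from the father, were the lines A129-2 (n = 2), A129-6 (n = 3) and A129-17 (n = 2). The diploid ESC line R1 had 2 libraries. Round spermatids (RS), which are post-meiotic male germ cells, had 3 libraries. The haploid lines were grown with LIF and 2 kinase inhibitors (PD0325901 and CHIR99021), first in serum replacement and later in serum, and haploid cells were enriched at intervals by Hoechst staining and sorting. The spermatids were sorted from trypsin-digested testes of 129Sv males. The sources used here do not give the mouse strain behind each ESC line, passage numbers or the age of the males. Per the labels the replicates were independently sorted; whether they were separate cultures or animals was not stated, so the p-values rest on a spread between samples that may be technical. R1 was the 1 diploid line, so differences from R1 cannot be told apart from differences between ESC lines of any ploidy.

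At this locus the protein-coding genes Dlk1, Rtl1 and Dio3 are expressed from the paternal chromosome, and the non-coding transcripts Meg3, anti-Rtl1, Rian and Mirg, which carry the miRNAs, from the maternal one, under the control of a differentially methylated region upstream of Meg3. A hairpin precursor yields a mature miRNA from each arm, named 5p and 3p, and bases 2 to 8 of the mature form, the seed, lead the pairing to target mRNAs. The miRNAs made from anti-Rtl1 are fully complementary to the Rtl1 mRNA and are known to direct its cleavage, which limits this retrotransposon-derived gene in the placenta.

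The sequences are printed in order along the locus, because neighbouring hairpins, the arms of a hairpin and hairpins on opposite strands are compared throughout. They are the RefSeq mature forms of GRCm38.p6, written 5′ to 3′ with the seed in capitals, and all 34 rows matched a RefSeq name. The first group runs from Meg3 to Rtl1, with Mir770 inside Meg3 and the other precursors between the 2 genes. Its precursors are Mir770 (chr12:109563692-109563785, plus strand), Mir673 (chr12:109571990-109572080, plus strand), Mir493 (chr12:109580233-109580315, plus strand), Mir337 (chr12:109585789-109585885, plus strand), Mir3544 (chr12:109585813-109585873, minus strand), Mir540 (chr12:109586080-109586146, plus strand), Mir665 (chr12:109586314-109586407, plus strand), Mir3070a (chr12:109587943-109588031, plus strand) and Mir3070b (chr12:109588592-109588680, plus strand). Mir770 overlaps an exon of Meg3 on the same strand, and no gene of GENCODE M21 covers the other precursors of this group.
miR-770-3p: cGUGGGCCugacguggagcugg
miR-673-5p: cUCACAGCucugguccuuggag
miR-673-3p: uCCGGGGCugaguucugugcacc
miR-493-5p: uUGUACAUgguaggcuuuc
miR-493-3p: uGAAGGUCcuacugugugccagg
miR-337-5p: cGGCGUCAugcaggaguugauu
miR-337-3p: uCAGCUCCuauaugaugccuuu
miR-3544-5p: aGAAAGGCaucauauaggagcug
miR-3544-3p: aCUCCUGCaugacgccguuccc
miR-540-5p: cAAGGGUCacccucugacucugu
miR-540-3p: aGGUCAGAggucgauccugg
miR-665-3p: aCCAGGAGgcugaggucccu
miR-3070-5p: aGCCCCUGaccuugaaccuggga
miR-3070-3p: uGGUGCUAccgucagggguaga
miR-3070-2-3p: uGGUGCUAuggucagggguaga

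The second group lies inside the coding exon of Rtl1. Its precursors are Mir431 (chr12:109590447-109590537, plus strand), Mir433 (chr12:109591715-109591838, plus strand), Mir127 (chr12:109592846-109592915, plus strand), Mir434 (chr12:109594506-109594599, plus strand) and Mir136 (chr12:109595327-109595388, plus strand), all opposite to Rtl1, and Mir3071 (chr12:109595318-109595397, minus strand), on the strand of Rtl1. Mir432 has its place among them, from 109594956 to 109595030.
miR-431-5p: uGUCUUGCaggccgucaugca
miR-431-3p: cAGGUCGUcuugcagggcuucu
miR-433-5p: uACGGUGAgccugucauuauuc
miR-433-3p: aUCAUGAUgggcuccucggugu
miR-127-5p: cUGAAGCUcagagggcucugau
miR-127-3p: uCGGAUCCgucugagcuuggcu
miR-434-5p: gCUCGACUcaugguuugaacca
miR-434-3p: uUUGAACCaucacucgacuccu
miR-136-5p: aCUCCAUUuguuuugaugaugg
miR-136-3p: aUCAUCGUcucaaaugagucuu
miR-3071-5p: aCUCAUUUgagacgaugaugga
miR-3071-3p: aUCAUCAAaacaaauggagucc

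The third group lies in introns of Rian on its strand. Its precursors are Mir341 (chr12:109611500-109611595, plus strand), Mir1188 (chr12:109611822-109611941, plus strand) and Mir370 (chr12:109618258-109618336, plus strand). From the start of Mir770 to the end of Mir370 the stretch measures 54645 bp.
miR-341-5p: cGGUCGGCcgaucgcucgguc
miR-341-3p: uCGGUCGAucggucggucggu
miR-1188-5p: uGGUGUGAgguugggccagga
miR-370-5p: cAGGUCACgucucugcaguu
miR-370-3p: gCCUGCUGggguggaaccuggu

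These miRNAs did not form a seed family. Only miR-3070-3p and miR-3070-2-3p shared a seed among the 34, and they differ by C9U and C10G, counted from the 5′ end with the base of miR-3070-3p first. Elsewhere among the RefSeq mouse miRNAs, miR-370-5p shared its seed with miR-1193-3p, miR-540-3p with miR-6915-5p and miR-673-5p with miR-6985-3p. miR-3070-5p is made by both Mir3070a and Mir3070b with the same sequence, so its reads cannot be assigned to either.

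The libraries differed in depth and content. Counted reads were 3709786 to 9102467 in the haploid libraries, 7632174 and 9176080 in R1, and 155232 to 243714 in RS. The miRNAs that mark pluripotent ESC, of the miR-290 and miR-302 families, summed to 497300 to 654100 CPM in the haploid libraries, 443100 to 451500 in R1 and 94.4 to 6049 in RS. Row by row, 2 of the 18 of these tested were higher in the haploid lines than in R1 and 11 lower (median log2 difference -0.95; edgeR's quasi-likelihood test, adjusted p under 0.05), so their sum and most of their rows differed in direction. Those of spermatids summed to 2815 to 11680, 1160 to 1224 and 296400 to 402000 CPM. The 13 rows that mark fibroblasts and feeder cells, none of them at 0 in any group, summed to 6489 to 29100 CPM in the haploid libraries, 16240 to 17980 in R1 and 28010 to 70500 in RS. The 13 rows of blood and endothelium summed to 408 to 935, 722 to 761 and 1720 to 15050 CPM, and the 2 rows of miR-202, a marker of somatic testis cells, to at most 0.412, at most 0.393, and 89.98 to 141.7 CPM. The part of such other cells in the results below was not tested. In bulk samples, fewer cells with a miRNA and less of it per cell cannot be told apart.

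Together the 34 miRNAs took 2.21% to 5.42% of counted reads in the haploid libraries, 2.33% and 2.64% in R1, and 0.0197% to 0.0837% in RS. The haploid and R1 ranges overlapped, and every RS library lay far below both. The 75 rows from the more distal part of the same region took 2.24% to 3.38% in the haploid libraries, 6.13% and 6.38% in R1, and 0.167% to 0.374% in RS, so there the haploid libraries lay below R1. miR-127-3p took 32.7% to 63.4% of the summed counts of the 34 in the haploid libraries, 43.1% and 45.5% in R1 and 39.6% to 43.8% in RS. miR-370-3p took 18.3% to 45.0% of the sum in the haploid libraries and 9.07% and 9.48% in R1.

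**Figure D1:**
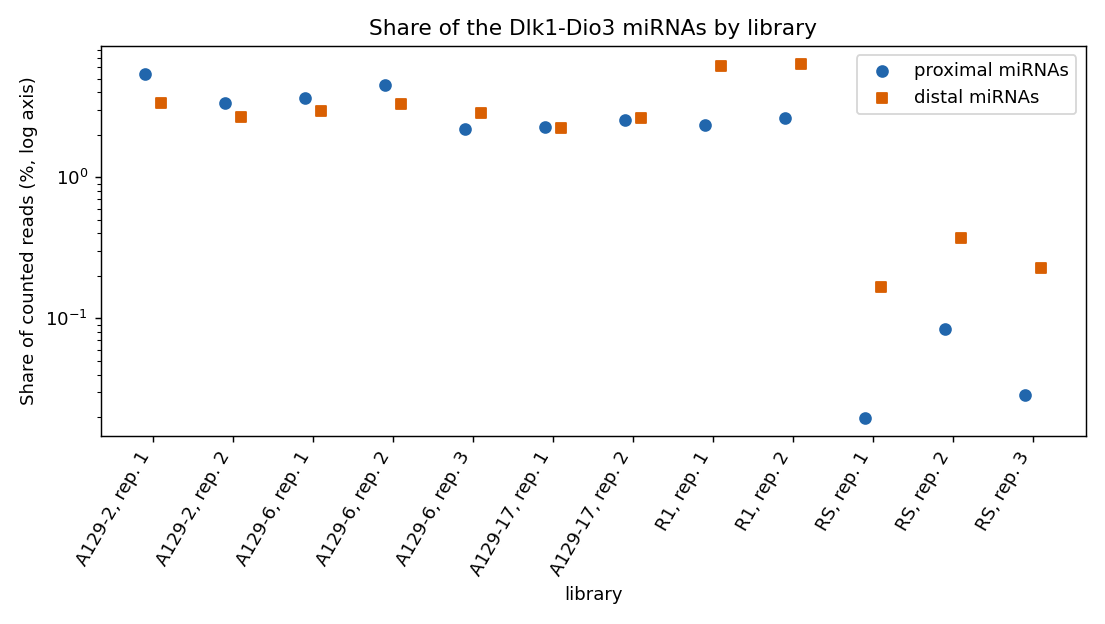
Share of counted reads (%, log axis) taken by the proximal (circles) and distal (squares) Dlk1-Dio3 miRNAs in each of the 12 libraries. The proximal share spans 2.21% to 5.42% in the haploid libraries and includes the R1 values, whereas the distal share of every haploid library is below the 6.13% and 6.38% of R1.

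Whether the haploid lines differ from the diploid line was asked first. Normalised CPM stand for counts relative to each library's size after trimmed-mean (TMM) scaling. The members differed from R1 in both directions, as all miRNAs tested did: 12 of the 34 were higher in the haploid lines and 16 lower at an adjusted p under 0.05 (edgeR's quasi-likelihood test over 757 miRNAs, Benjamini-Hochberg), and 6 were not called. Over all 757, 35.3% were higher and 35.3% lower, against 35.3% and 47.1% of the members, so the share of higher members was that of the background. The median log2 difference was -0.41 over the members and 0.33 over all miRNAs tested, so the middle of all miRNAs was itself above 0 at this scaling. In normalised CPM every haploid library lay above both R1 libraries for 11 members and below both for 15, and the groups overlapped for 8. Over all 757 miRNAs the corresponding shares were 34.7% above and 35.1% below. For the distal list, 9 of 63 tested were higher and 40 lower, with a median of -1.77.

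By position and by arm the counts were uneven, given here as a description without a test. Calls by arm over all miRNAs were not counted, so the unevenness cannot be called particular to the members. Upstream of Rtl1 means here and below at lower coordinates along the plus strand, while Rtl1 itself lies on the minus strand. In that stretch 7 of 16 members were higher and 4 lower (median log2 difference 0.25). Inside Rtl1, 3 of 12 were higher and 9 lower (median -2.17), and in the Rian introns 2 of 6 were higher and 3 lower (median 0.28). Of the 16 forms from the 5p arm 3 were higher and 10 lower, and of the 18 from the 3p arm 9 were higher and 6 lower. These counts hold the antisense pairs miR-136 and miR-3071, and miR-337 and miR-3544, whose reads may be shared. Without the 4 rows of miR-3071 and miR-3544, 12 of 30 were higher and 13 lower.

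The differences also went with base composition. Across the 34 members, Spearman's rho between GC content and the log2 difference was 0.61 and Pearson's r 0.69, as a description over miRNAs that share their libraries. Over the 609 tested miRNAs with a RefSeq sequence the values were 0.54 and 0.52. Of the 9 members under 50% GC none was higher and 8 were lower (median -5.64), of the 13 from 50% to under 60% 6 were higher and 6 lower, and of the 12 at 60% or more 6 were higher and 2 lower. With a GC correction per library 4 members were higher and 22 lower, with a member median of -1.40 and a median over all 609 of -0.09. Of these 609 miRNAs 395 were called, 45.1% of them higher. With the spermatids in the fit 14 were higher and 9 lower, at medians of 0.44 and 0.94, and 66.0% of all calls were then higher, against 50% from the 9 ESC libraries at the same scaling. The median over all miRNAs was 0.08 with RLE, 0.64 with upper-quartile and 0.20 with total-count scaling.

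Over 21 alternative settings, or 20 where a filter removed the miRNA, 13 members kept their call and sign in each. The same was not counted over all miRNAs, so the 13 cannot be set against a background. Those lower were miR-337-3p, miR-3544-5p and miR-540-5p upstream of Rtl1 and miR-433-5p, miR-127-5p, both arms of miR-136 and both arms of miR-3071 inside it. Those higher were miR-673-5p, miR-3070-2-3p, miR-433-3p and miR-1188-5p. The log2 difference ran from -6.33 to -4.03 for miR-136-3p, from -3.61 to -1.99 for miR-127-5p, from 1.53 to 3.20 for miR-433-3p and from 0.95 to 3.18 for miR-673-5p. For the other called members, the settings that end the call are given with their values.

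**Figure D2:**
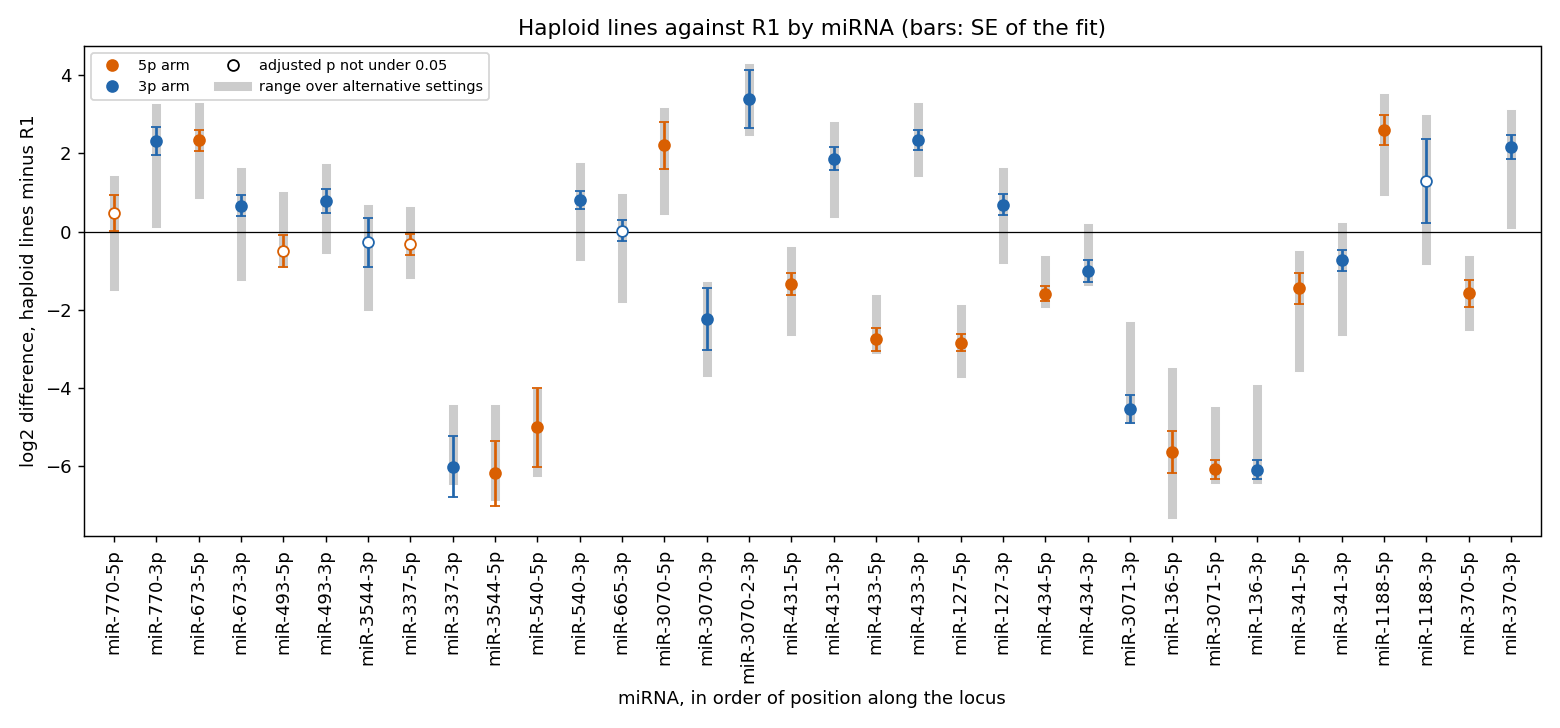
Log2 difference between the haploid lines and R1 for each of the 34 miRNAs in order along the locus, coloured by arm, with the SE of the fit, open points where the adjusted p was not under 0.05, and grey bars for the range over the alternative settings. The arms of miR-433, miR-431, miR-127, miR-540 and miR-370 lie on opposite sides of 0.

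Inside Rtl1, the decreases were led by miR-136 and its antisense partner miR-3071. miR-136-3p, the main arm of a hairpin whose products pair fully with Rtl1, had 1862 and 1804 normalised CPM in R1, against 32.6 and 34.5 for line A129-2, 25.5, 34.7 and 22.1 for line A129-6 and 27.4 and 15.5 for line A129-17. No haploid library came near R1, and the difference was 67.7-fold (log2 -6.08, SE 0.24, adjusted p = 2.83e-11). Its partner arm miR-136-5p had 30.8 and 30.7 in R1, against 1.37 and 0.573 for line A129-2, 1.24, 0.268 and 0.196 for line A129-6 and 0 and 0.777 for line A129-17 (normalised CPM). It was lower as well (log2 -5.64, SE 0.54, adjusted p = 2.40e-07), from 29 counts over the 7 haploid libraries.

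miR-3071 is annotated on the other strand over the same place. miR-3071-5p had 1824 and 1766 normalised CPM in R1, against 31.4 and 34.3 for line A129-2, 24.8, 33.9 and 23.3 for line A129-6 and 26.2 and 15.5 for line A129-17 (log2 -6.08, SE 0.24, adjusted p = 2.83e-11). miR-3071-3p had 119 and 108 in R1, against 5.27 and 5.04 for line A129-2, 6.83, 6.83 and 1.96 for line A129-6 and 5.75 and 2.72 for line A129-17 (log2 -4.53, SE 0.36, adjusted p = 3.34e-08). The mature miR-136-3p and miR-3071-5p overlap by 19 of 22 bases on opposite strands, and their counts over the 9 ESC libraries were 34581 and 33868. The count of miR-3071-5p was 95.8% to 105% of that of miR-136-3p in each ESC library and was equal to it in 4 of the 12 libraries. miR-136-5p and miR-3071-3p overlap by 20 bases but had 589 and 2281 counts. The sources used here do not give the strand setting of the counting. Reads of miR-136-3p and miR-3071-5p therefore cannot be told apart. How far miR-136-5p and miR-3071-3p share reads is not known from their unlike counts. The decreases of miR-136 and miR-3071 are not taken as independent results.

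miR-433 showed opposite differences of its arms. miR-433-3p, the abundant arm, had 448.8 and 482 normalised CPM in R1, against 2228 and 1944 for line A129-2, 2288, 2058 and 2724 for line A129-6 and 3045 and 2373 for line A129-17. All haploid libraries lay above R1, 5.09-fold on average (log2 2.35, SE 0.26, adjusted p = 1.04e-06). miR-433-5p had 58.3 and 77.5 in R1, against 8.39 and 13.4 for line A129-2, 10.4, 12.2 and 11.2 for line A129-6 and 9.19 and 7.38 for line A129-17 and was 6.72-fold lower, with every haploid library below R1 (log2 -2.75, SE 0.29, adjusted p = 5.99e-07).

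For miR-127, whose 3p arm was the most abundant member in 7 of the 9 ESC libraries (miR-370-3p led in A129-6 replicate 3 and A129-17 replicate 1), the arms also went apart. miR-127-3p had 9510.5 and 10839.6 normalised CPM in R1, against 23742 and 20702 for line A129-2, 18076, 23892 and 11922 for line A129-6 and 9839.6 and 12166 for line A129-17. The A129-2 and A129-6 libraries lay above both R1 libraries, and of A129-17 1 library did and 1 lay between them. The combined difference was log2 0.69, SE 0.27, adjusted p = 0.0341. It was lost with RLE scaling (adjusted p = 0.139), total-count scaling (0.139), DESeq2 (0.149), no filter (0.0712), or without A129-17 replicate 2 (0.0979) or R1 replicate 1 (0.253) or 2 (0.136), and GC correction turned its sign (log2 -0.69, adjusted p = 0.0225). miR-127-5p had 389 and 394 in R1, against 71.6 and 75.9 for line A129-2, 54.7, 67.5 and 60.5 for line A129-6 and 39.8 and 32.6 for line A129-17 (normalised CPM), 7.16-fold lower with no overlap of the groups (log2 -2.84, SE 0.22, adjusted p = 1.82e-08).

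miR-431 gave the same split. miR-431-5p, the main arm in R1, had 271 and 331 normalised CPM in R1, against 194 and 118 for line A129-2, 118, 164 and 68.6 for line A129-6 and 97.3 and 90.4 for line A129-17, all haploid libraries below R1 (log2 -1.33, SE 0.29, adjusted p = 0.000803). This call was lost with the spermatids in the fit (log2 -0.49, adjusted p = 0.229). miR-431-3p had 40.8 and 40.2 in R1, against 226 and 204 for line A129-2, 117, 131 and 109 for line A129-6 and 152 and 97.9 for line A129-17, all haploid libraries above R1 (log2 1.86, SE 0.29, adjusted p = 3.72e-05). Its call was lost with GC correction (log2 0.48, adjusted p = 0.0935).

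Both arms of miR-434 were lower. miR-434-5p had 2525 and 2532 normalised CPM in R1, against 761 and 801 for line A129-2, 831, 874 and 969 for line A129-6 and 761 and 955 for line A129-17, with no overlap (log2 -1.59, SE 0.20, adjusted p = 3.39e-06). miR-434-3p had 758.1 and 804 in R1, against 325 and 445 for line A129-2, 653, 672 and 314 for line A129-6 and 199.8 and 365 for line A129-17, where again no haploid library reached R1 (log2 -1.001, SE 0.29, adjusted p = 0.00627). With the spermatids in the fit neither was called (log2 -0.73, adjusted p = 0.0683 for the 5p arm and -0.14, 0.789 for the 3p arm). For miR-434-3p the call also ended with a minimum count of 50 (adjusted p = 0.0590), and GC correction turned its sign (log2 0.0271, adjusted p = 0.941).

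Upstream of Rtl1, towards Meg3, 7 of the 16 members were higher in the haploid lines and 4 lower. The 4 lower ones, miR-337-3p, miR-3544-5p, miR-540-5p and miR-3070-3p, were under 10 CPM in every group. Of the 9 forms with a mean of at least 10 CPM in a group, 6 were higher. That cut uses the levels compared, and miR-3070-5p met it in A129-17 alone (10.4), so the absence of lower forms among the 9 is not a result. The count of 6 higher was 4 with RLE scaling, 3 with total-count scaling, 3 with no filter and 3 without either R1 library. With GC correction 1 of the 9, miR-673-5p, was higher and 4 were lower. miR-770-3p, from the Meg3 exon, had 100.1 and 119.8 normalised CPM in R1, against 704 and 277 for line A129-2, 447, 385 and 568 for line A129-6 and 703 and 759 for line A129-17, every haploid library above R1 (log2 2.32, SE 0.35, adjusted p = 2.85e-05). GC correction ended this call (log2 0.29, adjusted p = 0.364). miR-673-5p had 48.7 and 58.0 in R1, against 309.8 and 268 for line A129-2, 263, 274 and 220.4 for line A129-6 and 239 and 294.4 for line A129-17 and was 5.04-fold higher (log2 2.33, SE 0.28, adjusted p = 2.16e-06). miR-673-3p had 77.3 and 75.7 in R1, against 98.6 and 114 for line A129-2, 107, 109 and 150.4 for line A129-6 and 132 and 142.04 for line A129-17 (normalised CPM), a smaller difference in the same direction (log2 0.66, SE 0.26, adjusted p = 0.0346). The call of miR-673-3p was lost with RLE scaling (adjusted p = 0.157), total-count scaling (0.227), DESeq2 (0.140), no filter (0.204), and without A129-2 replicate 2 (0.0786), A129-17 replicate 1 (0.0555) or 2 (0.0782) or R1 replicate 1 (0.225) or 2 (0.239), and it turned to log2 -1.06 with GC correction (adjusted p = 0.00135).

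miR-493-3p had 38.3 and 38.1 normalised CPM in R1, against 51.0 and 53.2 for line A129-2, 47.6, 55.7 and 86.6 for line A129-6 and 78.5 and 90.9 for line A129-17, with every haploid library above R1 (log2 0.77, SE 0.31, adjusted p = 0.0344). That call ended with RLE scaling (adjusted p = 0.133), total-count scaling (0.173), DESeq2 (0.108), no filter (0.143), and without A129-2 replicate 2 (0.0655), A129-17 replicate 2 (0.0718) or R1 replicate 1 (0.206) or 2 (0.208), and its sign turned with GC correction (log2 -0.34). miR-493-5p had 18.9 and 27.4 in R1, against 14.4 and 23.5 for line A129-2, 21.6, 30.1 and 10.8 for line A129-6 and 6.90 and 14.96 for line A129-17 and did not pass (log2 -0.50, SE 0.41, adjusted p = 0.283). The groups overlapped, and its sign turned with GC correction (log2 0.84) and with the spermatids in the fit (0.35).

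miR-337-5p had 386 and 424 normalised CPM in R1, against 382.1 and 401 for line A129-2, 408, 518 and 249 for line A129-6 and 170.1 and 271 for line A129-17, with R1 inside the haploid range (log2 -0.33, SE 0.27, adjusted p = 0.299). After GC correction it was lower (log2 -1.09, adjusted p = 0.00207), and its sign turned with a minimum count of 50 (log2 0.0214) and with the spermatids in the fit (0.53). The rare arm miR-337-3p behaved otherwise: 133 counts in the 2 R1 libraries (67 and 66) against 13 in the 7 haploid libraries, none of them in A129-17. The ratio of pooled counts, at library sizes after TMM scaling, was 25.2 in favour of R1 (95% interval 14.2 to 48.6, counting error only). Of the 13 haploid counts 9 came from A129-2 replicate 2, without which the ratio was 65.9. The fit called miR-337-3p lower (adjusted p = 7.89e-06). miR-3544-5p, which overlaps it by 21 bases on the opposite strand, had 125 and 12 counts (ratio 25.6, 14.2 to 51.0; adjusted p = 1.07e-05). Again 9 of its 12 haploid counts came from A129-2 replicate 2, and the ratio was 82.6 without it. In R1 replicates 1 and 2 miR-337-3p had 67 and 66 counts and miR-3544-5p 64 and 61. With the strand setting not given, reads of these 2 rows cannot be told apart, and their decreases are not independent results. miR-337-5p and miR-3544-3p overlap by 17 bases and had 23576 and 167 ESC counts. miR-3544-3p was at most 4.02 normalised CPM in a haploid library and did not pass (log2 -0.27, SE 0.64, adjusted p = 0.707), though after GC correction it was lower (log2 -1.90, adjusted p = 0.0129). Its sign turned with upper-quartile scaling (log2 0.0294) and with the spermatids in the fit (0.57).

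miR-540-3p had 184 and 209 normalised CPM in R1, against 349 and 365 for line A129-2, 379.5, 379.2 and 329.5 for line A129-6 and 285 and 337.1 for line A129-17, each haploid library above R1 (log2 0.81, SE 0.23, adjusted p = 0.00629). Its call was lost with total-count scaling (adjusted p = 0.113), no filter (0.0652) and without R1 replicate 1 (0.154) or 2 (0.0782), and GC correction turned it (log2 -0.63, adjusted p = 0.0141). miR-540-5p, the rare arm, had 62 counts in R1 and 8 in the haploid libraries with none in A129-17, a pooled ratio of 19.1 in favour of R1 (9.11 to 46.2; adjusted p = 0.000577). The ratio was 31.8 without A129-6 replicate 2, which held 4 of the 8 counts. miR-665-3p had 63.7 and 66.2 in R1, against 110.1 and 84.0 for line A129-2, 64.1, 78.4 and 62.3 for line A129-6 and 42.9 and 44.3 for line A129-17 normalised CPM and stood at no difference (log2 0.03, SE 0.27, adjusted p = 0.938). Its sign changed with 10 of the settings, to log2 -1.69 after GC correction (adjusted p = 2.02e-05), and with the spermatids in the fit it was called higher (log2 0.87, adjusted p = 0.0374).

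The miR-3070 forms were scarce and near-identical, so reads may be divided between them in ways the table does not show. miR-3070-5p had 1.24 and 1.28 normalised CPM in R1, against 2.54 and 3.90 for line A129-2, 3.97, 4.29 and 10.2 for line A129-6 and 12.8 and 7.97 for line A129-17, above R1 in every haploid library (log2 2.21, SE 0.60, adjusted p = 0.00405). GC correction ended its call (log2 0.73, adjusted p = 0.269). miR-3070-2-3p had 165 counts in the haploid libraries and 6 in R1 (log2 3.40, SE 0.73, adjusted p = 0.000771), and miR-3070-3p had 27 and 34 (log2 -2.24, SE 0.79, adjusted p = 0.0199). The call of miR-3070-3p was lost with no filter (adjusted p = 0.0504), with the spermatids in the fit (0.151), with counts summed per line (0.134) and without A129-2 replicate 2 (0.0554), A129-17 replicate 1 (0.0559) or R1 replicate 1 (0.152) or 2 (0.189).

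In the Rian introns, miR-370-3p was the most abundant form. It had 2093 and 2162 normalised CPM in R1, against 8187 and 8260.3 for line A129-2, 8072, 6915 and 13063 for line A129-6 and 13523 and 9180.4 for line A129-17, 4.49-fold higher with no overlap (log2 2.17, SE 0.30, adjusted p = 1.37e-05). GC correction brought the difference to log2 0.30 (adjusted p = 0.310). miR-370-5p had 48.5 and 39.9 in R1, against 8.59 and 15.7 for line A129-2, 14.7, 19.6 and 9.01 for line A129-6 and 21.8 and 14.8 for line A129-17 and was lower (log2 -1.58, SE 0.34, adjusted p = 0.000772). It was not called with the spermatids in the fit (log2 -0.71, adjusted p = 0.126).

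miR-1188-5p had 5.72 and 7.88 normalised CPM in R1, against 56.4 and 31.9 for line A129-2, 37.8, 37.9 and 37.4 for line A129-6 and 39.6 and 44.9 for line A129-17, 6.04-fold higher with every haploid library above R1 (log2 2.59, SE 0.38, adjusted p = 1.91e-05). miR-341-3p had 1144 and 1358 in R1, against 1358 and 878 for line A129-2, 654.1, 929 and 458 for line A129-6 and 594 and 524 for line A129-17 normalised CPM, overlapping between the groups (log2 -0.73, SE 0.26, adjusted p = 0.0205). It did not stay called with total-count (adjusted p = 0.0619) or upper-quartile scaling (0.148), a minimum count of 50 (0.179), counts summed per line (0.0764) and without R1 replicate 1 (0.0540) or 2 (0.178), and its sign turned with the spermatids in the fit (log2 0.11). miR-341-5p had 12.2 and 17.4 in R1, against 3.12 and 4.13 for line A129-2, 8.32, 3.48 and 3.72 for line A129-6 and 7.47 and 9.33 for line A129-17, all haploid libraries below R1 (log2 -1.44, SE 0.40, adjusted p = 0.00476). It was not called with the spermatids in the fit (adjusted p = 0.262) or without R1 replicate 2 (0.110). The rare arms miR-770-5p (log2 0.48, SE 0.47, adjusted p = 0.366) and miR-1188-3p (log2 1.29, SE 1.07, adjusted p = 0.295) did not pass, and both turned in sign with GC correction (log2 -1.39 and -0.72).

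**Figure D3:**
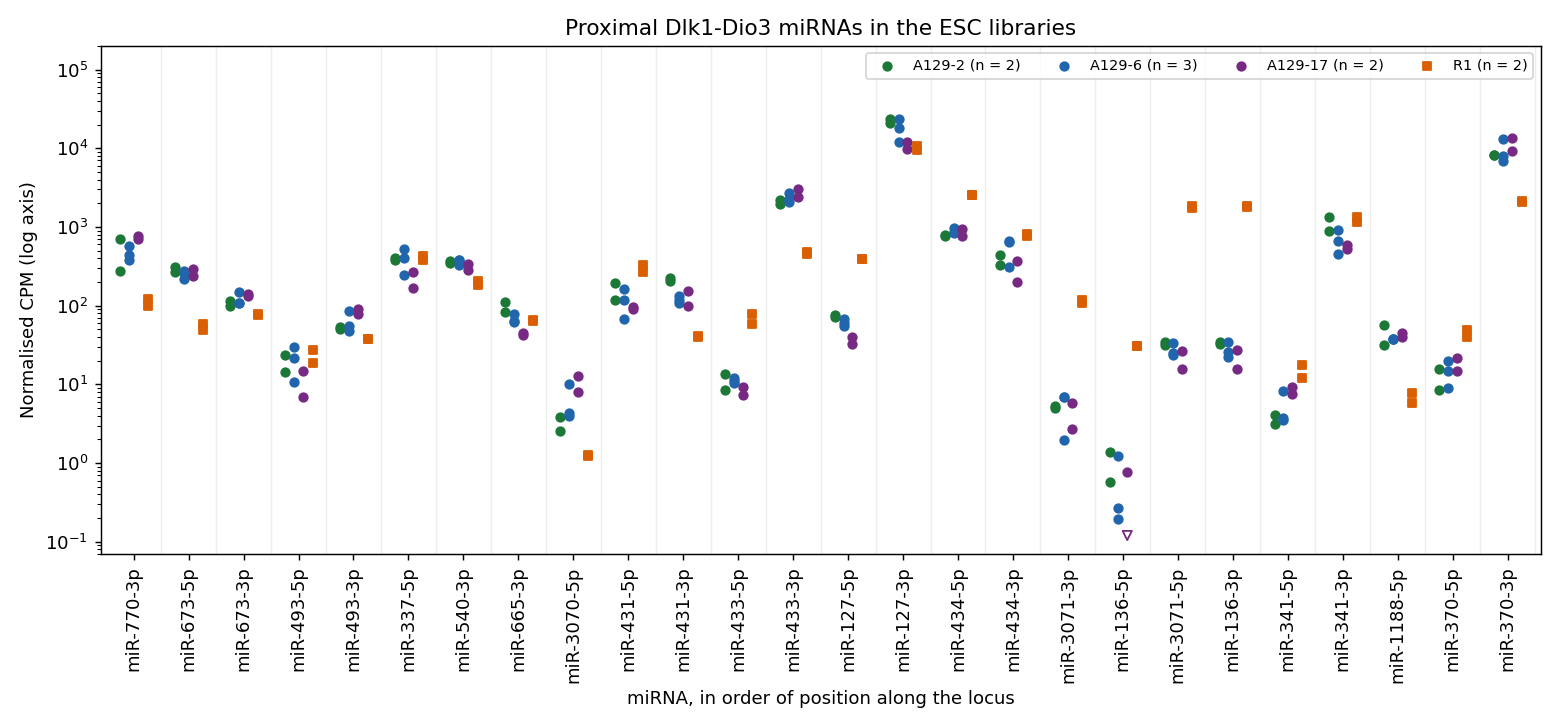
Normalised CPM (log axis) of the 26 miRNAs with a mean of at least 10 CPM in a group, in each ESC library, in order along the locus; circles are haploid lines, squares R1, and the open triangle marks a count of 0 (miR-136-5p in A129-17 replicate 1). For miR-136 and miR-3071 the haploid libraries lie far below R1, and for miR-433-3p, miR-770-3p, miR-370-3p and miR-1188-5p above it.

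**Figure D4:**
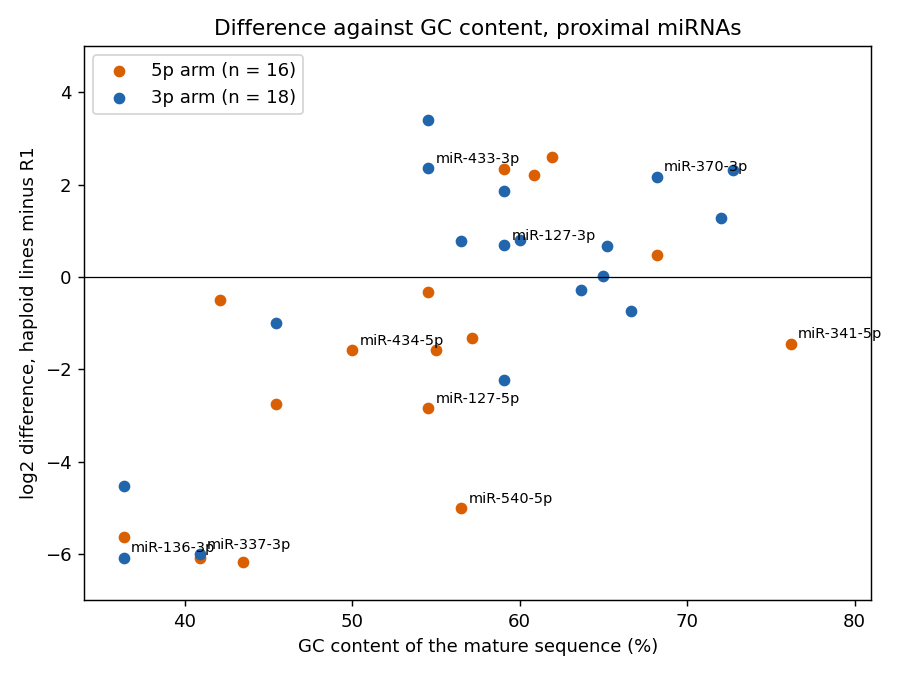
Log2 difference between the haploid lines and R1 against the GC content (%) of the mature sequence, 1 point per miRNA, coloured by arm. The 9 miRNAs under 50% GC all lie below 0, while miR-127-5p and miR-540-5p lie low at over 50% GC and miR-341-5p lies below 0 at 76.2%. The 9 include antisense pairs of miR-136 with miR-3071 and of miR-337 with miR-3544, whose reads may be shared.

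Each of the 3 haploid lines was also set against R1 by itself, and these comparisons share the same 2 R1 libraries. In A129-2, 9 members were higher and 14 lower than R1, where 31% and 28.8% of all miRNAs were called. In A129-6 there were 10 and 15 (35% and 32.1% of all), and in A129-17 11 and 16 (34.6% and 31.6%). The 14 lower members of A129-2 became 9 without R1 replicate 1, 8 without R1 replicate 2 and 7 with the spermatids in the fit, which also brought the lower members to 9 in A129-6 and 9 in A129-17. Calls over all miRNAs in A129-2 fell as well without either R1 library, so these falls are not particular to the members. With the spermatids in the fit, 69.3%, 67.3% and 68.3% of all calls were higher in A129-2, A129-6 and A129-17. In the same order of lines, miR-136-3p stood at log2 differences of -5.77, -6.06 and -6.41, and miR-433-3p at 2.16, 2.34 and 2.54. For miR-127-3p the values were 1.13 (adjusted p = 0.00803), 0.82 (0.0264) and 0.11 (0.765). miR-337-5p stood at -0.05, -0.05 and -0.88, and was called lower in A129-17 (adjusted p = 0.0390). In a test of differences among the lines themselves (edgeR), 0 of 34 members passed at an adjusted p under 0.05, where 29 of 757 miRNAs (3.83%) passed over all. At an unadjusted p under 0.05 there were 10 members. The number over all miRNAs at that threshold was not counted, so the 10 cannot be set against a background. miR-127-3p passed that test without A129-6 replicate 3 (adjusted p = 0.0447), and miR-3544-5p passed it with no filter on low counts (0.0450). Over all miRNAs, 80 of 749 passed without that library and 82 of 1497 with no filter. With the replicate number as a block, miR-127-3p (adjusted p = 0.0347), miR-337-5p (0.0453) and miR-434-3p (0.0238) passed. Over all miRNAs, 72 of 757 passed with the block. That block also takes the weight from A129-6 replicate 3, the only ESC library of that number, so it is not separate from leaving that library out.

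The balance of the 2 arms of a hairpin was then compared within each library, which needs no scaling between libraries. In R1 the 5p form was 86.9% to 89.2% of miR-431 counts, and in the haploid libraries 36.7% to 55.6%. Of 15 member hairpins with at least 20 counts over both arms in every ESC library, 3 shifted toward 5p in the haploid lines and 7 toward 3p (limma on the log2 ratio of the arms, adjusted p under 0.05). Over all 250 hairpins tested, 26.8% shifted toward 5p and 27.6% toward 3p.

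The arm shifts by hairpin were as follows. For miR-433 the 5p form was 0.301% to 0.685% of the hairpin's counts in the haploid libraries and 11.5% to 13.9% in R1, a 33.99-fold change of the ratio toward 3p (log2 -5.09, SE 0.37, adjusted p = 5.29e-05, limma). For miR-127 it was 0.268% to 0.505% of the hairpin's counts in the haploid libraries and 3.51% to 3.93% in R1 (log2 -3.51, SE 0.38, adjusted p = 0.000258). For miR-370 it was 0.0689% to 0.282% and 1.81% to 2.26% (log2 -3.76, SE 0.55, adjusted p = 0.00124), and miR-431 moved likewise (log2 -3.22, SE 0.40, adjusted p = 0.000530). These hairpins thus held relatively less of the 5p form in each haploid library than in either R1 library. miR-540 had a 5p share of 0% to 0.141% against 1.60% to 1.76% (log2 -5.07, SE 0.78, adjusted p = 0.00147), from 8 haploid counts of the 5p form, with 4 of the 7 haploid libraries at 0, where the 0.5 added to each count sets the ratio.

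Smaller or less stable shifts toward 3p were those of miR-770 (0.611% to 1.74% against 3.18% to 4.16%, log2 -1.83, SE 0.52, adjusted p = 0.0194) and miR-3071 (78.4% to 92.2% against 93.9% to 94.3%, log2 -1.48, SE 0.46, adjusted p = 0.0275). The first was lost without R1 replicate 1 (adjusted p = 0.146) or 2 (0.0749). The second was lost without A129-2 replicate 1 (0.0508), A129-17 replicate 1 (0.0527), or R1 replicate 1 (0.138) or 2 (0.143), and its counts may hold reads of miR-136. miR-337 moved toward 5p, with a 5p share of 97.9% to 98.5% in R1 and 99.7% to 100% in haploid libraries (log2 4.71, SE 0.41, adjusted p = 0.000112). That shift rests on 13 haploid counts of miR-337-3p, with 3 of the 7 libraries at 0, and those counts may hold reads of miR-3544-5p. miR-673 moved the same way, with 38.7% to 43.4% and 59.4% to 75.9% (log2 1.68, SE 0.36, adjusted p = 0.00679), a call lost without R1 replicate 1 (adjusted p = 0.0827). miR-3070 also passed (log2 4.13, SE 0.67, adjusted p = 0.00201), but this ratio used miR-3070-3p alone; with miR-3070-2-3p added, the 5p share was 34.2% to 74.4% in the haploid libraries and 36.1% to 37.0% in R1, which overlap. The arms of miR-434, miR-136, miR-341, miR-493 and miR-1188 were not called.

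Across the 15 hairpins the difference in GC content between the arms and the arm shift had a Spearman's rho of 0.40 and a Pearson's r of 0.48, as a description, and the signs matched in 9. The part of base composition in the arm shifts was not tested.

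**Figure D5:**
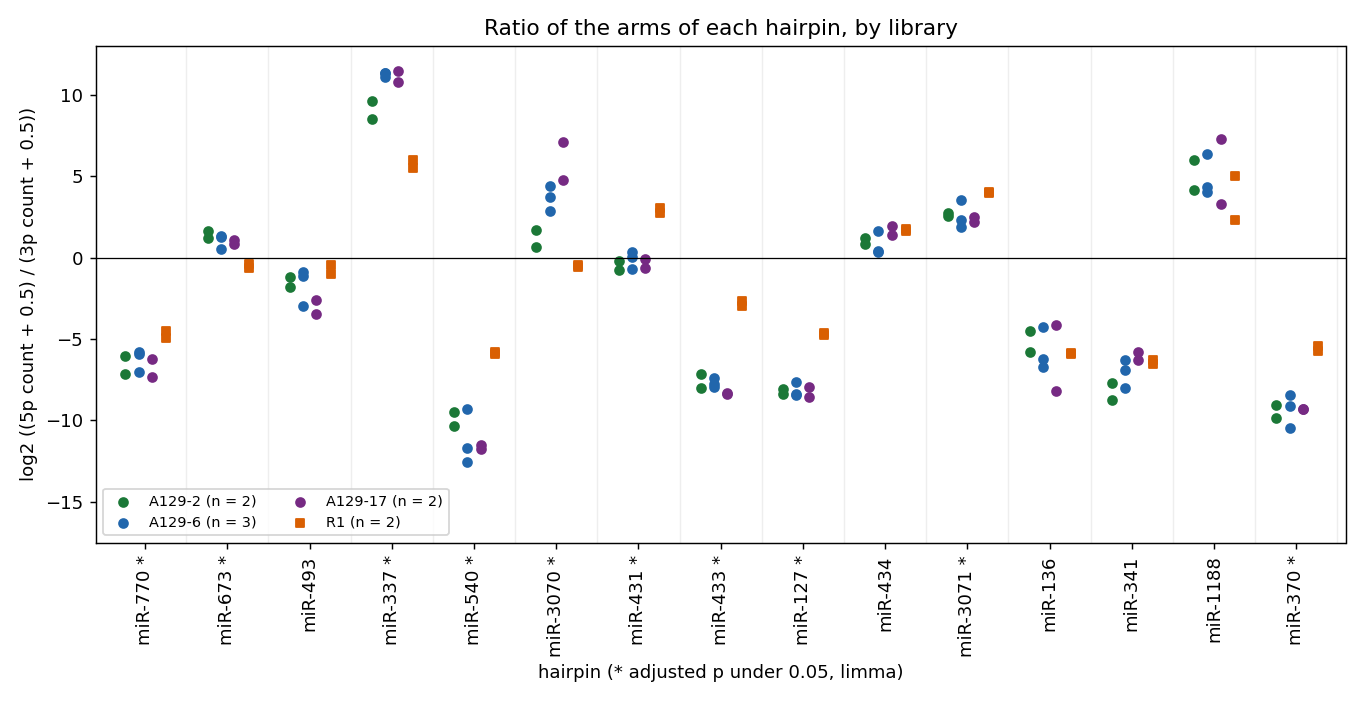
Log2 ratio of the 5p to the 3p count (0.5 added to each) in every ESC library for the 15 member hairpins with at least 20 counts in each library; stars mark an adjusted p under 0.05. The haploid libraries (circles) lie below R1 (squares) for miR-433, miR-127, miR-370, miR-431 and miR-540 and overlap it for miR-136 and miR-434.

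In round spermatids these miRNAs were close to absent from the counts. The 3 libraries held 226 counts of all 34 miRNAs together. For 16 members all RS libraries had 0 counts, which at the depths above allows up to 3 counts over the group, 10 had 1 to 3 counts and 8 had more. miR-127-3p led with 19, 53 and 21 counts in RS replicates 1, 2 and 3, followed by miR-136-3p and miR-3071-5p with 7, 22 and 5 each and miR-434-5p with 3, 12 and 10. RS replicate 2 had the highest count of each of these. The same replicates gave miR-370-3p 2, 8 and 0 counts, miR-434-3p 3, 4 and 0, miR-433-3p 1, 3 and 0 and miR-3071-3p 4, 0 and 0.

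Against spermatids, 25 members were higher in the haploid lines and 0 lower (44.5% and 20.8% of all 806 miRNAs tested), and 26 were higher in R1 and 0 lower (33.6% and 19.4%). At an unadjusted p under 0.05, and by DESeq2, 0 were lower in either comparison as well. The 16 members with 0 RS counts passed the filter through the ESC libraries alone and could not come out lower. For them the absence of lower calls was fixed in advance, and 10 others had only 1 to 3 RS counts. With upper-quartile and with total-count scaling 2 members were lower in the haploid lines than in RS. The comparisons of the haploid lines and of R1 with RS share the RS libraries. Ratios of pooled counts were taken at library sizes after TMM scaling, with 95% intervals of counting error only. Their size depends on that scaling, which the intervals do not cover. The median fitted log2 difference of the members between the haploid lines and RS was 7.60 with TMM and 6.55 with total-count scaling. By pooled counts, miR-127-3p was 354 (289 to 438) times its RS level in the haploid lines and 112 (91.7 to 139) times in R1. miR-370-3p was 1705 (927 to 3555) and 217 (118 to 453.3) times, and miR-433-3p 1070 (418 to 3926) and 119 (46.5 to 437) times. For miR-434-5p the ratios were 62.3 (42.2 to 96.3) and 103 (69.9 to 159).

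For members with 0 RS counts, folds were set against a floor of 3 counts over the RS group at TMM scaling, and they depend on that scaling. Of these, miR-673-5p was at least 164-fold higher in the haploid lines and at least 18.3-fold higher in R1. miR-431-3p was at least 91.9-fold and 13.7-fold higher, and miR-431-5p at least 75.5-fold and 104-fold.

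The 9 members not called between the haploid lines and RS were both arms of miR-136, both arms of miR-3071, and the rare forms miR-337-3p, miR-3544-5p, miR-540-5p, miR-3070-3p and miR-1188-3p. In R1 miR-136-3p was 54.9 (39.3 to 79.2) times its RS level, but in the haploid lines only 1.53 (1.09 to 2.22) times, a difference that did not pass (log2 0.54, SE 0.42, adjusted p = 0.253, edgeR). With upper-quartile and total-count scaling miR-136-3p was called lower in the haploid lines than in RS (log2 -1.03 and -1.26, adjusted p = 0.0342 and 0.0320), and so was miR-3071-5p (log2 -1.05 and -1.29, adjusted p = 0.0296 and 0.0270). Without RS replicate 2, which held 22 of the 34 RS counts of miR-136-3p, both were called higher in the haploid lines (log2 1.68 and 1.66, adjusted p = 0.00265 and 0.00260). The direction of miR-136-3p and miR-3071-5p between the haploid lines and spermatids therefore depended on the scaling and on 1 RS library. miR-3071-3p, whose 4 RS counts were all in RS replicate 1, was called higher without that library (adjusted p = 0.0286). At the depth of the RS libraries no member hairpin reached 20 counts over both arms in every library, so arm ratios against RS could not be fitted at that minimum. For miR-127, the hairpin with the most RS counts, the 5p form had 0 of 19, 1 of 54 and 0 of 21 counts in the 3 libraries, too few to set its share against the 0.268% to 0.505% of the haploid libraries or the 3.51% and 3.93% of R1.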

How the data were processed

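The authors deposited raw read counts per miRNA for 12 libraries, with no normalisation. The labels' protocols describe adapter ligation, PCR and gel selection and mention no molecular identifiers, so intervals and floors cover counting error only. The submitters' processing notes list Bowtie 0.12.9 and DESeq2. Strand use, build, miRBase release and the counting of reads with several matches are not given in the sources used here. Ligation and PCR can favour some sequences, so levels of different miRNAs are shares of counted reads only.

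Counts were tested in R 4.3.3 with edgeR 4.0.16 (filterByExpr with a minimum count of 10 and a minimum total of 15, TMM scaling, quasi-likelihood F-test on group means, Benjamini-Hochberg over all features, threshold 0.05, two-sided). The 9 ESC libraries were fitted together (757 miRNAs), and all 12 for comparisons with RS (806). The 3 haploid lines weighed equally. Arm ratios were tested with limma 3.58.1 on log2((5p + 0.5)/(3p + 0.5)) for hairpins with at least 20 counts in every library. DESeq2 1.42.0 was an alternative. The edgeR comparison of the haploid lines with R1 and the limma arm ratio were tried on simulated data, and the other steps were not. Normalised CPM are from the ESC fit. Where a line was at 0, a ratio of pooled counts replaces the fitted fold. Against RS, a group total of 0 was replaced by a floor of 3 counts. Pooled ratios and floors used library sizes after TMM scaling.

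The members and lists were chosen with earlier results of these data known. Values per library are given for the 26 members with a mean of at least 10 CPM in a group, and the others by count. Replicates of a group differed by more than counting noise, and none was a duplicate. Alternatives were other scalings, filters, a replicate block, all 12 libraries, sums per line, GC correction (per-library lowess of the log2 deviation on GC content) and leaving out each library; leaving out A129-6 replicate 3 and A129-17 replicate 1 together, the haploid libraries of lowest TMM factor, was chosen after seeing the data (12 members higher and 16 lower than R1), as was leaving out each haploid library from the pooled ratios. Leaving out an R1 library assumes that the lone one varies like the other groups.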

Additional observations from a re-analysis of the deposited data

How the results depend on the processing

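Against R1, 13 of the 28 called members kept call and sign in every setting run and the other 15 did not. Of the 34 members, 12 changed sign in at least 1 setting. Neither count was made over all miRNAs, and the causes were not tested. Leaving out 1 library gave 8 to 12 members higher and 13 to 16 lower. The count of members lower fell to 9 when the spermatids joined the fit, and for single lines to 7 (A129-2), 9 (A129-6) and 9 (A129-17). Of all calls in that fit 66.0% were higher, and 69.3%, 67.3% and 68.3% for these lines. The count of members higher fell to 4 with GC correction and 5 with GC correction and the replicate block. Of all calls 45.1% and 45.8% were higher with these corrections, against 50% in the main fit. For A129-2, 9 were lower without R1 replicate 1 and 8 without R1 replicate 2, with a range of 8 to 14 over the libraries left out. Against RS, 2 members were lower in the haploid lines with upper-quartile and 2 with total-count scaling. Differences among the lines were called for 1 member with no filter, where 82 of 1497 miRNAs were called. Without A129-6 replicate 3 they were called for 1 member, where 80 of 749 miRNAs were called.

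Signs changed against R1 (log2) for miR-665-3p with RLE (-0.22) and total-count scaling (-0.0772), no filter (-0.0712), DESeq2 (-0.22), and without A129-2 replicate 1 (-0.0579), A129-17 replicate 1 (-0.0075) or 2 (-0.0494) or R1 replicate 1 (-0.0188; range over single libraries left out -0.0579 to 0.0853), for miR-3544-3p with upper-quartile scaling (0.0294) and for miR-337-5p with a minimum count of 50 (0.0214). With all 12 libraries they changed for miR-337-5p (0.53), miR-341-3p (0.11), miR-3544-3p (0.57) and miR-493-5p (0.35). GC correction, and GC correction with the replicate block, changed them for miR-1188-3p (-0.72 and -0.61), miR-127-3p (-0.69 and -0.62), miR-434-3p (0.0271 and 0.0973), miR-493-3p (-0.34 and -0.44), miR-493-5p (0.84 and 0.92), miR-540-3p (-0.63 and -0.61), miR-665-3p (-1.69 and -1.67), miR-673-3p (-1.06 and -1.12) and miR-770-5p (-1.39 and -1.32). Against RS the sign of the haploid difference changed for miR-3071-5p with RLE (-0.0141), and with upper-quartile and total-count scaling for miR-136-3p (-1.03 and -1.26), miR-3071-3p (-0.40 and -0.46) and miR-3071-5p (-1.05 and -1.29). It also changed for miR-136-3p and miR-3071-5p with DESeq2 (-0.0041 and -0.0272), without A129-17 replicate 1 (-0.0727 and -0.0839) and without RS replicate 3 (-0.0565 and -0.0814; ranges over single libraries left out -0.0727 to 1.68 and -0.0839 to 1.66). The arm ratio of miR-136 changed sign without A129-2 replicate 1 (-1e-04), A129-6 replicate 1 (-0.0263) or A129-17 replicate 2 (-0.45), with a range of -0.45 to 0.883.

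The replicate numbers did not pair the libraries: deviations of same-numbered libraries correlated at -0.16 to 0.13 (1 of 21 pairs over 0.1). With the replicate block, 3 members differed among the lines by edgeR: miR-127-3p (adjusted p = 0.0347), miR-337-5p (0.0453) and miR-434-3p (0.0238). Over all miRNAs 72 of 757 did. Against R1, 12 members were with the block higher and 16 lower, where 534 of 757 miRNAs were called, 50.4% of them higher. The arm ratio of miR-493 was called with the block (log2 -1.10, adjusted p = 0.0274, limma), as it was without A129-6 replicate 3 (-1.10, 0.0457). Among the ESC libraries only A129-6 has a replicate 3, so the block fits that library exactly and gives it no weight. The block and leaving out that library are therefore not separate checks. The arm ratio against RS had no member hairpin at a minimum of 20 or 50 counts, so its alternatives gave no value there; at a minimum of 5, 4 could be fitted, but the 5p form of miR-127 had 1 RS count in all, so the added 0.5 sets its ratio and its call is not used. The RS depth limits what can be said of members with 0 to 3 counts.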
